A study of Mus musculus with 6 samples.

Results

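The genes of MHC class I antigen presentation were followed in mouse penile squamous cell carcinoma. They were taken as a list of 10 gene symbols, H2-K1, H2-D1, B2m, Tap1, Tap2, Tapbp, Psmb8, Psmb9, Nlrc5 and Erap1, of the 24063 symbols in the count files. All 10 had a row, and all 10 passed the filter on low counts. RNA was sequenced from 6 samples taken at 5 months of age, 3 of them penile tumors (SA) and 3 samples of penis (WT). The authors describe the WT samples as normal penile epithelium. SA mice had the genotype PB-Cre+ Smad4L/L ApcL/L, in which a Cre recombinase under an androgen-responsive promoter deletes floxed Smad4 and Apc in the penile epithelium, and their tumors formed without carcinogen. WT mice were C57BL/6 without these alleles. The mouse strain of the SA colony was not given in the sources used here.

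Class I molecules show fragments of a cell's own proteins to CD8 T cells and natural killer cells. The proteasome cuts cytosolic proteins into peptides, the TAP transporter moves these into the endoplasmic reticulum, and tapasin and its partners load them onto a heavy chain paired with beta-2 microglobulin. Nearly all nucleated cells express the pathway, leukocytes and endothelium more strongly than most, and the transactivator NLRC5 and interferons raise its transcription.

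Of the 10 genes, 7 lie on chromosome 17 (RefSeq positions, GRCm38.p6, the assembly also called mm10). Tapbp is at chr17:33919478-33929290 and H2-K1 at chr17:33996012-34000619. Psmb9 (chr17:34182030-34187330), Tap1 (chr17:34187556-34197225), Psmb8 (chr17:34198195-34201454) and Tap2 (chr17:34204479-34216321) follow one another within 34292 bases. H2-D1 (chr17:35263094-35267497) lies 1262474 bases beyond H2-K1. B2m is at chr2:122147687-122153082, Erap1 at chr13:74639573-74693205 and Nlrc5 at chr8:94434335-94527272.

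The promoters of the heavy chains and of the light chain are shown because these 3 genes, on 2 chromosomes, carry the same pair of short motifs. Reading 5′ to 3′ along each gene's own strand, TGACG (the core of the X2 box, which CREB-type factors bind) is followed after 20 bases by ATTGG, the reverse complement of the CCAAT box bound by NF-Y. Capitals mark these motifs, the kappaB-type site GGGATTCCC in H2-K1 and H2-D1, and a match to the interferon response pattern GAAANNGAA in B2m. The sequences are RefSeq's, on the build given above.
H2-K1, chr17:34000349-34000508, minus strand: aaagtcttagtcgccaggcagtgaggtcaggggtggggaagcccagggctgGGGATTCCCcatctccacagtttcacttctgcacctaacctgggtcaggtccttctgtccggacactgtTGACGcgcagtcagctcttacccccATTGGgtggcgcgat
H2-D1, chr17:35262873-35263032, plus strand: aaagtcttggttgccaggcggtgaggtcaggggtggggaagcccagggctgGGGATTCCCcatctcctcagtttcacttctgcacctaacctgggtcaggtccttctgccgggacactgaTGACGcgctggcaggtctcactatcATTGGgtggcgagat
B2m, chr2:122147489-122147648, plus strand: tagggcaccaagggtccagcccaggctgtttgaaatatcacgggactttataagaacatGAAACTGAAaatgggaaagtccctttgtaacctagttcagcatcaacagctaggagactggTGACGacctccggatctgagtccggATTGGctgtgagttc

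The H2-K1 and H2-D1 stretches were identical at 145 of 160 bases, against 55 of 160 for H2-K1 with B2m and 54 of 160 for H2-D1 with B2m. TGACG lay 41, 101 and 78 bases before the transcript start of H2-K1, H2-D1 and B2m in the table of promoters. For H2-K1 this start, and so the printed stretch, lies inside the gene record given above, which begins further upstream. That table, with each promoter running from 250 bases before to 50 bases after a start, held 8 of the 10 genes. Tap2 and Nlrc5 were not matched. The spaced pair was found in 31 of 32851 promoters on either strand (0.0944%), which belonged to 27 gene symbols, 3 of them H2 genes (H2-K1, H2-D1 and H2-M3). On either strand, TGACG alone was in 20.8% of all promoters and in 5 of the 8 matched genes, and CCAAT in 37.4% and in 6 of the 8. GGGATTCCC was in 0.353% of promoters and, of these genes, in H2-K1 and H2-D1. GAAANNGAA was in 8.56%, with B2m and Erap1 among them, and TTCNNNGAA, an interferon-gamma-type pattern, was in 8.3%, with Psmb8 among them. These are matches of letters and say nothing of binding in the samples. Only exact matches were counted, so H2-K1 and H2-D1, without GAAANNGAA, can still hold an interferon response element of another form.

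Psmb9 and Tap1 are read in opposite directions from 225 bases that lie between them. This stretch is shown because the RNA of its 2 neighbours can be compared below. Capitals mark CCAAT and TGACG.
Psmb9-Tap1, chr17:34187331-34187555, plus strand: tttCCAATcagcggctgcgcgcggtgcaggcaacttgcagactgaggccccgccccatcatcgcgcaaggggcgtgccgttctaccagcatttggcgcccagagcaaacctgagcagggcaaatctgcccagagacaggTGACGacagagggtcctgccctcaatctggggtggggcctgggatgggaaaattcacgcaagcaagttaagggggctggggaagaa

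In the tumors, RNA for the peptide transporter and its loading partner fell. H2-K1, H2-D1 and B2m did not pass the test, although their log2 fold changes (-0.59, -0.56 and -0.56) were alike to that of Tapbp (-0.60). Tap1 was 2.14-fold, Tap2 1.88-fold and Tapbp 1.52-fold lower in SA than in WT. These were 3 of the 10 genes at an adjusted p under 0.01 in edgeR's quasi-likelihood test (n = 3 in each group), and 0 were higher. Among all 16336 genes tested, 37.6% were called in either direction, 17.5% as lower and 20.1% as higher. At those shares any 10 genes would hold between 1 and 2 lower calls and about 2 higher, so the counts themselves are not a result about the list. The median log2 fold change (SA minus WT) was -0.57 over the 10 genes and 0.03 over all genes. Of the 10, 8 were negative, against 7894 of all 16336 genes tested. The 10 genes kept much the same order of samples, as given below, so these are not 8 separate observations. At the added threshold of a 4-fold change (log2 of 2), which 13% of all genes passed, the count was 0 of 10 by edgeR, DESeq2 and limma-voom, and also at an unadjusted p under 0.05 with that fold. Without the fold, 5 of the 10 had an unadjusted p under 0.05 in edgeR, against 58.9% of all genes tested. The calls depended on single libraries: 0 of the 10 were called without WT replicate 1, 1 (Tapbp) without SA replicate 2, 1 (Tap1) without WT replicate 2, and 2 without WT replicate 3. With library totals as the only scaling, 1 (Tap1) was called.

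**Figure D1:**
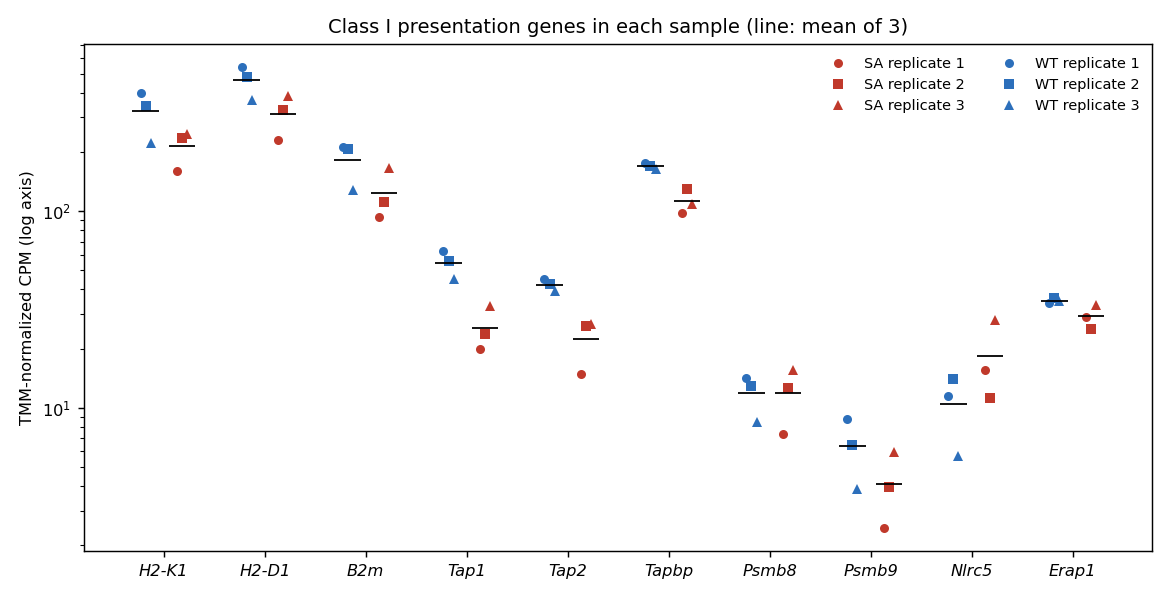
TMM-normalized CPM (log axis) of the 10 class I presentation genes in each of the 3 WT (blue) and 3 SA (red) samples, with marker shapes for the replicate and lines at the group means. Tap1, Tap2, Tapbp and Erap1 are the 4 genes whose SA values all lie below all WT values, and the other 6 overlap.

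Levels are TMM-scaled CPM, each count set against its library's total, which compare one gene between samples. The gene rows held 23828283 to 32871142 counts in 5 libraries and 110509147 in SA replicate 3, so that 3 counts, the smallest level taken as detected, were 0.0244 to 0.137 CPM; this covers counting error only. Epithelial content was checked with 8 markers (among them Krt5, Krt14 and Trp63). Their summed level was 12470 to 14390 CPM in SA and 21150 to 25150 CPM in WT. Krt5, Krt14 and Perp (WT means 7614, 7942 and 4471 CPM) made up most of the WT sum. Epcam went the other way (log2 fold change 2.35, adjusted p = 2.41e-05, edgeR), and Cdh1 was not called (0.04, adjusted p = 0.748). The sum thus does not measure how much epithelium a sample held. The WT samples also held smooth muscle RNA, with Myh11 at 586 to 794 CPM against 3.12 to 36.7 CPM in SA. Of the targeted genes, Smad4 fell (log2 fold change -0.77, SE 0.128, adjusted p = 0.00114 by edgeR; -0.49 and 0.0152 with library totals as the only scaling) and Apc RNA was higher (1.43, SE 0.168, adjusted p = 0.000185). These counts cover whole transcripts and are not limited to deleted exons, so they do not check the deletion of Apc.

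Tap1 encodes a subunit of the transporter that carries peptides into the endoplasmic reticulum. Its level was 63.1, 55.8 and 45.01 CPM in WT replicates 1 to 3 and 19.99, 23.7 and 32.8 CPM in SA replicates 1 to 3. The highest SA value stayed below the lowest WT value. Tap1 fell by 1.09 on the log2 scale (SE 0.200, adjusted p = 0.00201, edgeR). The call was lost without SA replicate 2 (adjusted p = 0.0127) and without WT replicate 1 (0.0108), with a log2 fold change of -1.04 and -0.99.

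Tap2 encodes the other subunit of the same transporter. It measured 45.3, 42.5 and 39.1 CPM in WT and 14.8, 25.9 and 26.7 CPM in SA. SA replicate 1 was the lowest by a wide margin, and the groups did not overlap. Tap2 fell by 0.91 on the log2 scale (SE 0.211, adjusted p = 0.00691, edgeR). Its call was the least secure of the 3, with adjusted p-values of 0.0143, 0.0317, 0.0246 and 0.0167 without SA replicate 2, WT replicate 1, WT replicate 2 and WT replicate 3, and of 0.0124 under upper quartile scaling.

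Tapbp encodes tapasin, which bridges the transporter and the empty class I molecule. It measured 176, 170 and 163 CPM in WT and 97.6, 129 and 109 CPM in SA. WT samples lay close together, and every SA sample was lower. Tapbp fell by 0.60 on the log2 scale (SE 0.117, adjusted p = 0.00284, edgeR). The call was lost without WT replicate 1 (adjusted p = 0.0134), without WT replicate 2 (0.0135) and with library totals as the only scaling (0.0431, log2 fold change -0.31).

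H2-K1 encodes a classical heavy chain, the part of the class I molecule that holds the peptide. It measured 401, 344 and 222 CPM in WT and 161, 236 and 248 CPM in SA. WT replicate 3 was below SA replicates 2 and 3, so the groups overlapped. Its log2 fold change of -0.59 (SE 0.241, adjusted p = 0.0738, edgeR) did not pass the threshold.

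H2-D1 encodes the other classical heavy chain described here. Its values were 541, 480 and 369 CPM in WT and 229, 327 and 384 CPM in SA. SA replicate 3 was above WT replicate 3. At a log2 fold change of -0.56 (SE 0.207), its adjusted p was 0.0481 (edgeR), above the threshold of 0.01.

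B2m encodes beta-2 microglobulin, the light chain that every class I heavy chain needs to reach the cell surface. It measured 213, 206 and 128 CPM in WT and 93.4, 112 and 165 CPM in SA. Again WT replicate 3 fell within the range of the tumors. The log2 fold change was -0.56 (SE 0.259, adjusted p = 0.104, edgeR). These 3 estimates were alike in size to that of Tapbp, with standard errors that were larger, and a p-value that misses the threshold does not show that the genes were unaltered.

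**Figure D2:**
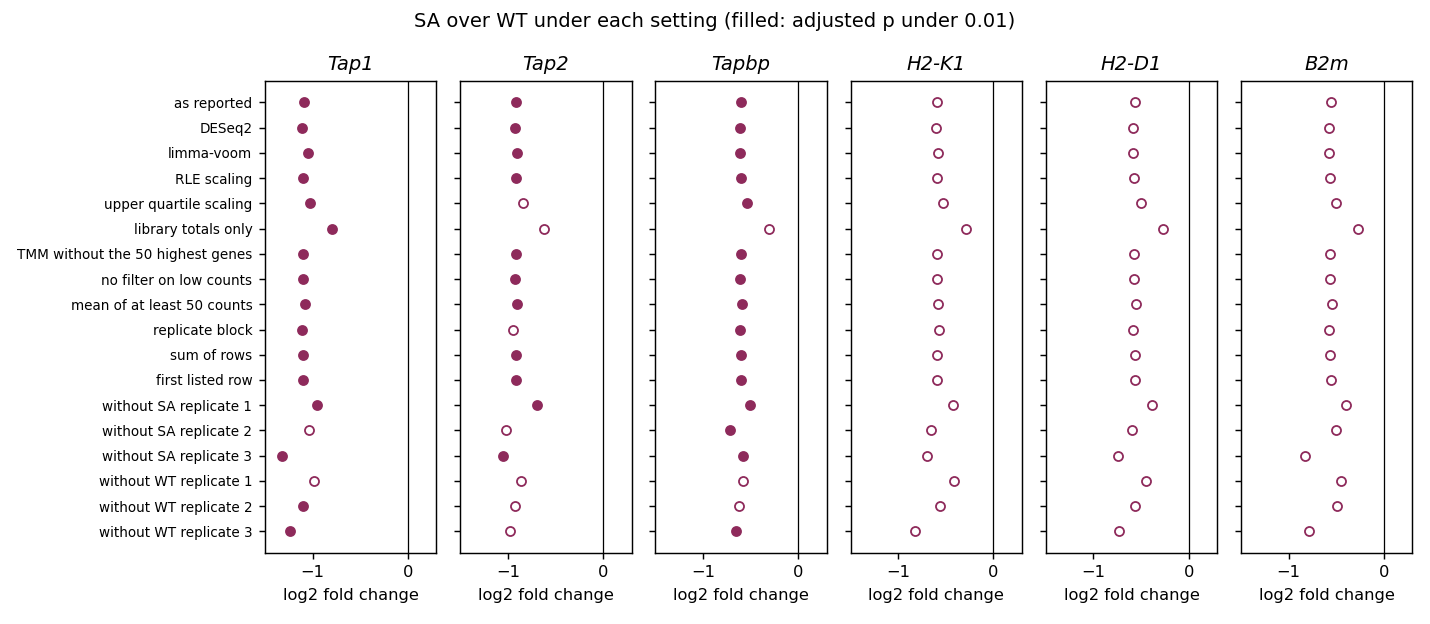
Log2 fold change (SA over WT) of 6 class I genes under each setting of the analysis, including each sample left out in turn, with filled circles where the adjusted p was under 0.01. Every estimate is negative, and H2-K1, H2-D1 and B2m are open throughout, while the calls of Tap1, Tap2 and Tapbp come and go with single samples.

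Psmb8 encodes an inducible catalytic subunit of the immunoproteasome, which takes the place of Psmb5. It measured 14.2, 13.0 and 8.52 CPM in WT and 7.40, 12.6 and 15.6 CPM in SA. The group means were 11.9 ± 2.98 CPM in WT and 11.9 ± 4.15 CPM in SA (SD, n = 3). The log2 fold change was 0.01 (SE 0.290, adjusted p = 0.989, edgeR), and its sign turned under 4 other settings and with single samples left out. Psmb8 lies between Tap1 and Tap2 on the chromosome.

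Psmb9 encodes a further inducible subunit, the counterpart of Psmb6. It measured 8.77, 6.44 and 3.87 CPM in WT and 2.45, 3.94 and 5.97 CPM in SA. SA replicates 2 and 3 lay within the WT range and SA replicate 1 below it. Its log2 fold change was -0.60 (SE 0.380, adjusted p = 0.214, edgeR).

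Nlrc5 encodes the transactivator of class I genes and had the highest estimate of the list. It measured 11.5, 14.0 and 5.70 CPM in WT and 15.6, 11.2 and 28.0 CPM in SA. SA replicate 2 lay below 2 of the WT samples. The log2 fold change was 0.82 (SE 0.421, adjusted p = 0.142, edgeR) and did not pass. NLRC5 is known to drive several other genes of the list, and its part in their levels here was not tested.

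Erap1 encodes the peptidase that trims peptides in the endoplasmic reticulum. It measured 34.1, 36.1 and 34.8 CPM in WT and 28.9, 25.2 and 33.4 CPM in SA. Every SA value was below every WT value, yet the gap between the groups was small. The log2 fold change was -0.26 (SE 0.124, adjusted p = 0.108, edgeR), and it was 0.02 with library totals as the only scaling. With Tap1, Tap2 and Tapbp, Erap1 made 4 of the 10 genes with every SA value below every WT value, a separation shown by 30.7% of all genes tested.

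The samples of a group kept much the same order from gene to gene. SA replicate 1 had the lowest SA value for 8 of the 10 genes, and SA replicate 3 the highest for 9. Among WT samples, replicate 1 was the highest for 8 genes and replicate 3 the lowest for 9. Leaving out a single sample moved the median log2 fold change of the 10 genes between -0.76 (without WT replicate 3) and -0.40 (without SA replicate 1).

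Marker genes of other cell types also differed between the groups and among the tumors. Beside the counts of calls below, 20.1% of all genes tested were called higher and 17.5% lower. Summed leukocyte markers (9 genes, such as Ptprc and Cd53) were 137, 229 and 352 CPM in SA replicates 1 to 3, and 78.4 to 118 CPM in WT, with 4 of 9 called higher. SA replicate 1 was thus the lowest and SA replicate 3 the highest of the tumors in these markers too. The same held for the macrophage and dendritic cell, endothelial, and smooth muscle and fibroblast markers given below. In the sums of granulocyte, T and NK cell and epithelial markers, SA replicate 1 was not the lowest tumor. The granulocyte sum follows S100a8 and S100a9, which were lowest in SA replicate 2. Csf3r (19.1, 28.4 and 63.4 CPM in SA replicates 1 to 3), Cxcr2, Retnlg, Mmp8, Trem1, Clec4d and Fpr1 were lowest in SA replicate 1. So were Cd3d, Cd3e, Cd3g and Cd2, but not Cd5, Lck and Zap70. Macrophage and dendritic cell markers, with 1 of 11 called higher (Itgax), were 150, 334 and 359 CPM in SA and 221 to 315 CPM in WT. Granulocyte markers were far above WT in all tumors, at 1446 to 2531 CPM against 57.0 to 121 CPM. Most of the sum in SA came from S100a8 (582 to 1034 CPM) and S100a9 (803 to 1368 CPM). Of this list 9 of 9 were called higher, 5 of them genes that passed the filter through SA alone, and Ly6g had no row. T and NK cell markers summed to 40.5 to 45.3 CPM in SA and 5.42 to 9.58 CPM in WT. Of these, 3 of 7 tested were called higher (Cd5, Lck and Zap70), and they made up 31.2 to 41.1 CPM of the sum in SA. The other markers of this list, Cd3d, Cd3e and Cd3g among them, summed to 2.30 to 9.29 CPM in SA and 1.59 to 4.52 CPM in WT, with overlap, so the list as a whole does not mark these cells as higher. Of the rest, Cd8a, Cd8b1, Ncr1 and Klrb1c had too few counts to be tested. Endothelial markers were 156, 167 and 248 CPM in SA and 285 to 361 CPM in WT, with 4 of 7 called lower (Pecam1, Tie1, Emcn and Esam). Smooth muscle and fibroblast markers were 950, 2478 and 3117 CPM in SA and 4871 to 5630 CPM in WT, with 5 of 8 called lower. The epithelial list had 3 of 8 lower (Krt5, Trp63 and Perp) and 1 higher (Epcam). The part of these markers in the levels of the class I genes was not tested, and in bulk RNA fewer cells of a type and less RNA per cell cannot be told apart.

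**Figure D3:**
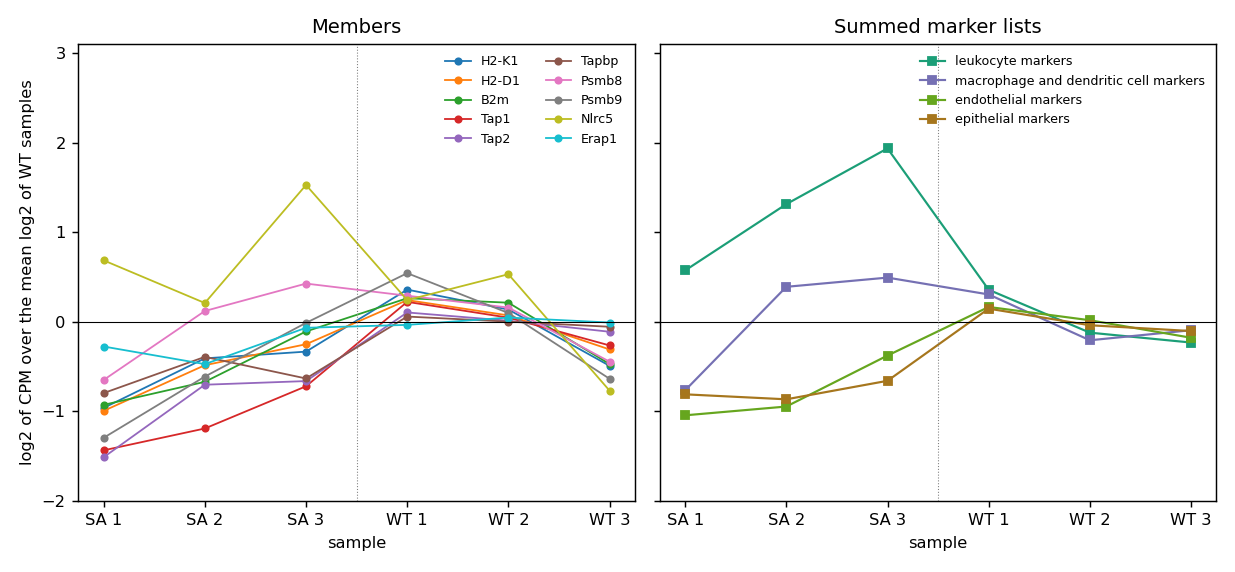
Log2 level of each class I gene (left) and of 4 summed marker lists (right) in each sample, relative to the mean log2 level of the WT samples, with lines joining the values of one gene or list. Most class I genes are lowest in SA replicate 1. Leukocyte (137 CPM), macrophage and dendritic cell (150 CPM) and endothelial markers (156 CPM) were also the lowest of the tumors there, and epithelial markers were not.

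The levels of the 10 genes were ranked per kilobase of transcript, which allows genes to be compared. In WT the order was H2-D1 (267 CPM per kilobase), B2m (212), H2-K1 (196), Tapbp (61.7), Tap1 (18.5), Tap2 (17), Psmb8 (9.72), Erap1 (8.72), Psmb9 (7.89) and Nlrc5 (1.5). The heavy chains and B2m overlapped one another, as did Tap1 with Tap2, Psmb8 with Erap1, and Erap1 with Psmb9. In SA the same 4 genes led, with H2-D1 at 180, B2m at 144, H2-K1 at 130 and Tapbp at 40.7 CPM per kilobase. Below them Psmb8 (9.70), Tap2 (9.02), Tap1 (8.64), Erap1 (7.26), Psmb9 (5.11) and Nlrc5 (2.63) each overlapped the next in order.

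Ratios within a sample do not depend on how libraries are scaled, and 4 were set with the design. B2m to H2-K1, per kilobase, was 1.02, 1.15 and 1.11 in WT and 1.12, 0.909 and 1.28 in SA. The WT samples lay within the range of the tumors, with a log2 difference of -0.00084 (exact two-sided permutation test, p = 1.00, n = 3). H2-K1 to H2-D1 was 0.782, 0.755 and 0.635 in WT and 0.738, 0.761 and 0.681 in SA, a log2 difference of 0.01 (exact permutation p = 0.90). The immunoproteasome was compared with its constitutive counterparts in the same way. Psmb8 to Psmb5 was 0.148, 0.153 and 0.119 in WT and 0.120, 0.193 and 0.308 in SA. SA replicate 1 lay within the WT range and the other tumors above it, and the log2 difference was 0.47 (SD of the log2 ratio 0.20 in WT and 0.68 in SA, exact permutation p = 0.30). Psmb9 to Psmb6 was 0.0954, 0.0848 and 0.0526 in WT and 0.0322, 0.0463 and 0.0881 in SA, a log2 difference of -0.57 (exact permutation p = 0.30). With 3 samples a group the smallest p of this test is 0.10.

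A further 4 ratios were chosen after the values had been seen. Their p-values are therefore descriptions and no tests. The adjustment covers these 4 and not the other pairs that could have been chosen. Tap1 to Psmb8, which are neighbours, was 1.84, 1.79 and 2.19 in WT and 1.12, 0.778 and 0.872 in SA. The groups were apart, with a log2 difference of -1.08 (exact permutation p = 0.10, adjusted over the 4 ratios 0.13). Tap1 to H2-K1 was 0.0878, 0.0906 and 0.113 in WT and 0.0695, 0.0561 and 0.0738 in SA, also without overlap (log2 difference -0.55, exact permutation p = 0.10, adjusted 0.13). Tap2 to H2-K1 was 0.0748, 0.0818 and 0.116 in WT and 0.0609, 0.0728 and 0.0710 in SA (log2 difference -0.39, exact permutation p = 0.10, adjusted 0.13). Tap1 to Psmb9, which share the 225 bases printed above, was 1.97, 2.37 and 3.18 in WT and 2.23, 1.64 and 1.502 in SA. Here the groups overlapped (log2 difference -0.48, exact permutation p = 0.20, adjusted 0.20).

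Other genes of the pathway were read from 7 lists with 65 genes in all, of which 61 were tested. Of these, 9 were higher (3 of them heavy chains that passed the filter through SA alone), 7 lower and 45 not called. Both counts of calls were below the shares over all genes tested (20.1% higher and 17.5% lower). The median log2 fold change of the 61 genes was 0.01. The loading chaperones Calr, Canx, Pdia3, Tapbpl and Hspa5 had 0 of 5 called by edgeR, with 4 at an unadjusted p under 0.05 (58.9% of all genes). Tapbpl, a relative of tapasin, had the one negative estimate among them (-0.37, adjusted p = 0.0427). Partners of the immunoproteasome (Psmb10, Psme1, Psme2 and Pomp) had 0 of 4 called by edgeR, with 1 at an unadjusted p under 0.05, below that share. The constitutive subunits Psmb5, Psmb6 and Psmb7 had 0 of 3 called, with Psmb5 at -0.51 (adjusted p = 0.0163; 0.00711 in DESeq2). Cytosolic peptidases, which trim or destroy peptides before transport, went both ways. Thop1 fell by 1.11 and Npepps by 0.97 on the log2 scale, and Blmh rose by 1.07 (adjusted p = 0.000123, 6.77e-05 and 0.000239, edgeR).

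**Figure D4:**
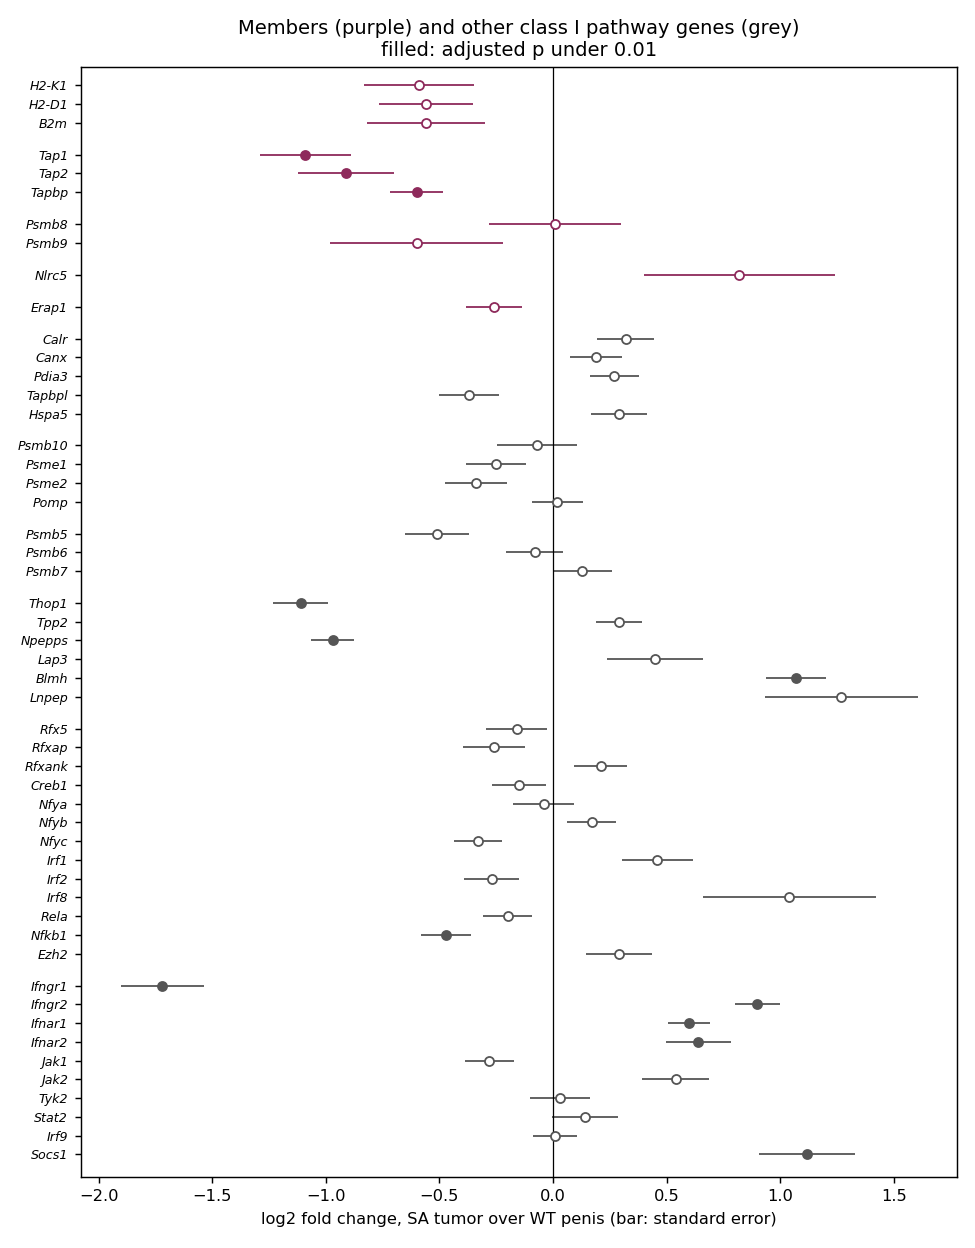
Log2 fold change (SA over WT) with its standard error for the 10 class I presentation genes (purple) and for 41 further genes of the pathway (grey), grouped by role; filled circles have an adjusted p under 0.01. Tap1, Tap2 and Tapbp are the filled members, and among the grey genes Ifngr1 has the lowest value (-1.72).

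The other class I heavy chains include non-classical molecules with restricted tissue expression. Of 21 such genes 19 were tested, with 4 higher, 3 lower and 12 not called (all genes tested: 20.1% higher and 17.5% lower). Of the 4, H2-T3, H2-Q2 and H2-Q10 passed the filter on low counts through the SA samples alone, so that a difference was built in, and they are given as values without a test. H2-T3, the thymus leukemia antigen, measured 0, 0 and 0.0456 CPM in WT, at most 1 count in a library, and 3.31, 0.960 and 1.43 CPM in SA. H2-Q2 measured 0, 0.0334 and 0.0456 CPM in WT and 0.818, 0.662 and 0.885 CPM in SA. For both of these, the WT values lay under the smallest detectable level, so no fold is given. H2-Q10 measured 0.588, 0.334 and 0.182 CPM in WT and 1.23, 3.05 and 5.45 CPM in SA. Cd1d1, which presents lipids to NKT cells, was the fourth that rose, from 0.945 ± 0.220 CPM in WT to 8.02 ± 0.930 CPM in SA (SD, n = 3; log2 fold change 3.1, adjusted p = 2.47e-05, edgeR). Those that fell were H2-T22 (log2 fold change -1.45), H2-T9 (-1.45) and H2-K2 (-1.28), at adjusted p-values of 0.000338, 0.000325 and 0.00327. H2-T22 and H2-T9 had nearly the same counts in every sample, and so count as one observation. The call of H2-K2 was lost without SA replicate 2, WT replicate 1 or WT replicate 2, at adjusted p-values of 0.0125 to 0.0161, and with library totals as the only scaling (0.0108).

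Near-identical sequence limits some of these values. Of the 76-base windows of the transcripts, 6.81% for H2-D1, 1.42% for H2-K1 and 0.956% for Tapbp also occurred in another gene, and 0 for the other 7 members. How reads that fit several genes were counted is not given in the sources used here. H2-L, a gene absent from the C57BL/6 haplotype, held 0.656 to 0.691 times the counts of H2-D1 in every sample, so that its values cannot be told apart from those of H2-D1. H2-L is nevertheless counted among the heavy chains tested. H2-Q6 had the same counts as H2-Q8, and H2-Q7 the same as H2-Q9.

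Over all genes tested, 37.6% were called in either direction. Of 14 genes for factors that act on class I promoters, Nfkb1 fell (log2 fold change -0.47, adjusted p = 0.00715, edgeR) and the other 13 were not called. That call was lost without SA replicate 1, SA replicate 2, WT replicate 2 or WT replicate 3, with adjusted p-values of 0.0214, 0.0262, 0.0313 and 0.0217, and also under upper quartile scaling (0.0159), library totals only (0.209) and the replicate block (0.0138). Irf1, which is induced by interferons, had a log2 fold change of 0.46 (adjusted p = 0.0363). The interferon list had 4 of 10 tested genes higher and 1 lower, beside 20.1% higher and 17.5% lower over all genes tested. Ifngr1, the ligand-binding chain of the interferon-gamma receptor, fell from 163 ± 8.77 CPM in WT to 49.4 ± 13.1 CPM in SA (SD, n = 3; log2 fold change -1.72, adjusted p = 0.000108, edgeR). Its partner chain Ifngr2 rose (0.90, adjusted p = 0.000127), as did both chains of the type I receptor, Ifnar1 (0.60, adjusted p = 0.000821) and Ifnar2 (0.64, adjusted p = 0.00537). The call of Ifnar2 was lost with another choice of transcript row (adjusted p = 0.0978 with the first listed row) and without each sample but SA replicate 1 (0.0111 to 0.0321). Socs1, a feedback inhibitor of interferon signalling, rose by 1.12 (adjusted p = 0.00238, edgeR; 0.0146 without WT replicate 2 and 0.0114 without WT replicate 3). Ifnb1 had 0 counts in all 6 samples and Ifng at most 0.0568 CPM, so that neither interferon was tested.

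The 5 genes whose levels were most alike those of the list over the 6 samples were picked from 13813 others by Pearson's r with the mean standardized log2 level of the 10 genes. They were Trim34a (r = 0.993), H2-L (0.989), Adamts15 (0.986), Tcta (0.986) and Psme2b (0.982), and all 5 had adjusted p-values above the threshold. H2-L is no separate case, since it follows the member H2-D1. These r values describe how the genes were picked, and the 6 points share the order of samples given above.

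Strain can alter class I genes, whose alleles differ between mouse haplotypes, and genes known to differ between strains were read for this reason. Nnt, which is truncated in C57BL/6J mice, measured 9.31, 10.98 and 12.3 CPM in WT and 23.1, 20.6 and 28.6 CPM in SA (log2 fold change 1.15, adjusted p = 0.000575, edgeR). Wdfy1 (1.03, adjusted p = 0.00101) and Glo1, on the same chromosome as the MHC (0.87, adjusted p = 0.00122), were also higher in SA. H2-Ea-ps, the row of the class II gene that is silent in the C57BL/6 haplotype, had at most 0.0372 CPM in any sample. No row was named H2-Ea. The part of strain in the class I differences was not tested.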

How the data were processed

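RNA-seq was compared between penile tumors of SA mice and penis samples of WT mice (n = 3 each, labels of the samples). The libraries were stranded, with paired reads of 76 bases. Alignment by the authors was to mm10 (TopHat), and they deposited raw counts from HTSeq for each transcript row, with FPKM and TPM values. FPKM values deposited by the authors were used only to work out transcript lengths from the counts, for the levels per kilobase and the ratios. The deposited TPM values served only as an alternative length scaling. They gave the same Psmb8 to Psmb5 difference (0.47) and are no separate check of the lengths. The authors name 3 SA mice and do not say whether each WT sample is a separate mouse, so p-values measure the spread between these samples.

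Of 33068 transcript rows, 1 row per symbol (the highest mean count) was kept, giving 24063 genes. Counts were filtered by filterByExpr (minimum count 10), leaving 16336 genes, scaled by TMM and tested in edgeR 4.0.16 (R 4.3.3) by the quasi-likelihood F-test (robust option), with p-values adjusted over all of them after Benjamini and Hochberg. A call is an adjusted p under 0.01. Ratios were compared by exact permutation in SciPy 1.17.1. The method was tested on simulated data. No replicate pair agreed within sampling noise, so none was merged, which does not show that samples came from separate animals.

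The members and lists were chosen with earlier results of these data known. All 10 members are named, with up to 3 pathway genes per list and direction by size of change, the strain-informative genes, Smad4, Apc and the 5 genes most alike; Cd1d1 and uncalled genes given as values were chosen after their values were seen. A gene of the regulator list is counted but not reported here by name. Alternatives were DESeq2 1.42.0, limma-voom (limma 3.58.1), 4 scalings, 2 filters, 2 choices of row, a replicate block and each sample left out.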

Additional observations from a re-analysis of the deposited data

How the results depend on the processing

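The direction of Tap1, Tap2, Tapbp, H2-K1, H2-D1, B2m, Psmb9 and Nlrc5 was kept under every alternative run. Of 644 values of 38 class I, pathway, strain and targeted genes under the alternatives, 587 kept direction and side of the threshold, 40 lost the call, 5 gained it and 12 turned. With library totals as the only scaling, the median of all genes moved by 0.29 (log2), the count of members called lower was 1 and of pathway genes called higher 20, and the estimates of Erap1 (0.02), H2-Q4 (0.05) and Psmb10 (0.22) turned. The median of the members was then -0.28. Leaving out 1 sample gave 0 to 3 members called lower and 0 called higher, with a median log2 fold change of -0.76 to -0.40, and 5 to 7 pathway genes lower and 6 to 10 higher. Psmb10 (-0.19 to 0.05) turned without SA replicate 1 (0.05) and without WT replicate 1 (0.05). Psmb8, at 0.01, turned with DESeq2 (-0.01), RLE (-0.00011), no filter on low counts (-0.0019) and the replicate block (-0.03), and without SA replicate 2 (-0.04), SA replicate 3 (-0.25) or WT replicate 3 (-0.21), within a range of -0.25 to 0.24.

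Among the ratios, B2m to H2-K1 ranged from -0.11 to 0.13 with 1 sample left out (0.13 without SA replicate 2, 0.04 without WT replicate 2, 0.01 without WT replicate 3) and H2-K1 to H2-D1 from -0.08 to 0.07 (-0.0031 without SA replicate 1, -0.02 without SA replicate 2, -0.08 without WT replicate 3). Psmb8 to Psmb5 ranged from 0.13 to 0.81 and Psmb9 to Psmb6 from -0.96 to -0.24. The summed leukocyte markers, an alternative chosen after seeing the data, ranged from 0.94 to 1.62 (log2 ratio, SA over WT). The cause of these shifts was not tested.

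Samples with the same replicate number did not deviate together (correlation of residuals -0.13 to 0.02, other pairs -0.15 to 0.21). No pairing by number was seen, but with 3 samples a group this check cannot exclude one. With the replicate number as a block, 2 members were called lower (Tap1 and Tapbp), and Tap2 had an adjusted p of 0.011. Depth limits genes under 0.137 CPM, and 3 samples a group limit exact tests to p = 0.10.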
